A study of Mus musculus with 8 samples.

Results

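The genes of the proteasome were followed in RNA sequencing of C57BL/6 mouse brain. Members were all genes named Psma, Psmb, Psmc, Psmd or Psme with a number, that is, the subunits of the core and regulatory particles, their chaperones of the same name, and the activators. The table held 43 such genes among 55780, and 38 of them reached an average of 1 FPKM (fragments scaled to gene length and to a size factor of the library) in Ctrl or in Ep1 and were tested, in a fit over 14710 genes. The remaining 5 members, Psma8, Psmb8, Psmb9, Psmb11 and Psmd10, stayed below that level. The 8 libraries were 4 named Ctrl, which the labels call untreated, and 4 named Ep1, which the labels describe as given PDT, at 10 J/cm2 for Ep1 1 and 2 and at 20 J/cm2 for Ep1 3 and 4. MNP is named in the title and a magnetic force in the design text, so what was applied cannot be settled from the labels, and Ep1 is used here as a group name. Age, sex and the time between treatment and sampling were not given in the sources used here.

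The proteasome degrades proteins that carry ubiquitin chains. Its barrel-shaped 20S core is built of outer rings of alpha subunits, which gate the entrance, and inner rings of beta subunits, of which the constitutive Psmb5, Psmb6 and Psmb7 products cut peptide bonds. The 19S regulatory particle sits on the end of the barrel: the Psmc ATPases of its base unfold the substrate and thread it inward, and its lid removes ubiquitin. In immune cells and under interferon the catalytic subunits Psmb8, Psmb9 and Psmb10 replace the constitutive ones, and the activators of the Psme family cap the core in place of the 19S particle. In neurons the proteasome is known for its part in synaptic protein turnover. When proteasome activity falls short, the transcription factor encoded by Nfe2l1 is known to raise the proteasome genes as a set.

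Between 15038147 and 17772972 fragments per library lay in genes, and the tested members held 89 to 3831 fragments each in a library. The labels name brain tissue and also brain microvessel endothelial cells, and the 7 neuron markers examined summed to 1369 to 1550 FPKM per library against 59.5 to 84.8 for the 8 endothelial markers. Values therefore cover a mixture of brain cells, in which a change in the share of a cell type and a change per cell cannot be told apart. Among the controls Ctrl 3 was the odd one, correlating across genes (Pearson) at 0.967 to 0.971 with the rest, which correlated at 0.986 to 0.988 with each other. Whether the libraries are separate animals is not stated, and p-values then rest on a spread that may be technical.

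The comparison of Ep1 with Ctrl asked whether proteasome transcripts differed between treated and untreated brain. Changes were small: 5 of the 38 tested members were higher in Ep1 at an adjusted p under 0.05 in limma, and 0 were lower. At an unadjusted p under 0.05 there were 15 members, of which 1, Psme1, was lower, and limma with voom weights on the recovered fragments also gave 0 lower. Many of all genes tested also lay under that level, where a limma p of 0.0493 (Psmd5) corresponded to an adjusted p of 0.124. The 15 are therefore not read as particular to the members. The 5 were the activator genes Psme3 and Psme4, the ATPase gene Psmc1, the lid gene Psmd3 and the core gene Psmb4, with log2 changes of 0.18 to 0.38. Over all genes tested, 15.5% were higher and 10.6% lower by the same rule, so that the 13.2% of members that were higher lay near the background. In 7 of 38 members, or 18.4%, all Ep1 libraries lay above all Ctrl libraries, against 17.7% of all genes. No member changed by 0.5 or more on the log2(FPKM + 1) scale, against 10.7% of all genes tested. For the 33 members that did not pass, the 95% intervals of the change lay between -0.40 and 0.49, and 8 of these had an adjusted p between 0.05 and 0.1.

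Most members leaned the same way by a little. The median log2 change of the 38 was 0.11, against 0.01 over all genes tested, and 29 of 38 estimates were above 0, or 76.3%, against 51.1% of all genes. Summed over the tested members, expression was 978 ± 24.8 FPKM in Ctrl and 1059 ± 25.4 in Ep1 (SD, n = 4 each), a ratio of 1.08. The 4 Ctrl libraries gave sums of 965, 973, 961 and 1015, and the 4 Ep1 libraries 1057, 1027, 1089 and 1063, so the groups did not overlap. As a share of the fragments in genes, all members took 0.264% to 0.270% in Ctrl and 0.276% to 0.288% in Ep1, which also did not overlap. With quantile normalization the sums ran from 992 to 1031 in Ctrl and from 1018 to 1048 in Ep1, which overlapped, and the median change was 0.03 for members and -0.03 for all genes. These sums and medians are descriptions, since the members share their libraries. Mitochondrial transcripts took 5.08% of the fragments of Ctrl 3 and 3.21% to 3.61% of the other 7 libraries, and after removing those genes and rescaling each library to the same total the median change was 0.08 for members and -0.02 for all genes. The difference between these medians was 0.11 in the values as deposited, 0.10 after that rescaling and 0.06 with quantile normalization. Among genes with a mean of 5 FPKM or more over all samples, the median change was 0.11 for 36 members and 0.04 for all genes. That difference was 0.07.

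**Figure D1:**
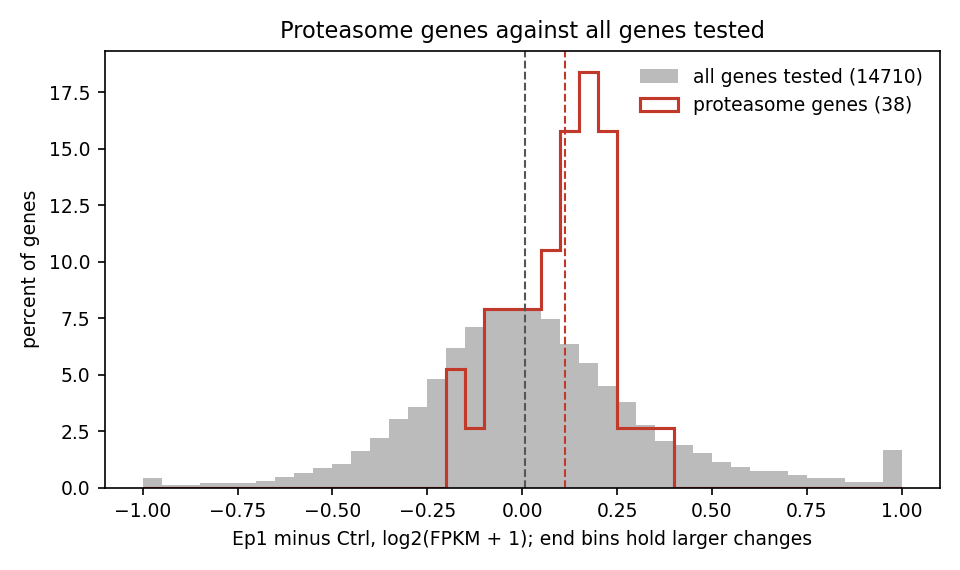
Distribution of the change between Ep1 and Ctrl on the log2(FPKM + 1) scale (horizontal axis, bins of equal width, with larger changes in the end bins) as the percent of genes (vertical axis), for all 14710 genes tested (grey) and the 38 tested proteasome genes (red line). Dashed lines mark the medians, 0.01 for all genes and 0.11 for the proteasome genes, and no proteasome gene lies beyond 0.5 in either direction.

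The activators held the member with the smallest p-value. Psme3 encodes PA28-gamma, a nuclear activator that opens the core without ATP or ubiquitin. It stood at 28.6, 30.2, 31.0 and 29.8 FPKM in Ctrl 1 to 4 and at 35.2, 34.3, 34.7 and 34.4 in Ep1 1 to 4. All 4 Ep1 values lay above all 4 Ctrl values, and the log2 change was 0.21 ± 0.05 SE (limma adjusted p = 0.0131). Without any 1 library Psme3 still passed, while its call was lost with quantile normalization (adjusted p = 0.136). Psme4, which encodes PA200, a large single-chain cap known from chromatin and from DNA repair, also passed. It went from 7.71, 7.36, 8.98 and 7.20 FPKM in Ctrl to 11.0, 8.88, 10.1 and 9.51 in Ep1, with a log2 change of 0.30 ± 0.08 (adjusted p = 0.0264). Here Ctrl 3 was above Ep1 2, so the groups overlapped. The call of Psme4 held without Ctrl 3 or without Ep1 2 and was lost without any other single library (adjusted p = 0.0546 to 0.0714).

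The other activator genes, Psme1 and Psme2, encode PA28-alpha and PA28-beta, the interferon-inducible cap that assembles as a mixed ring. Psme1 stood at 10.2, 10.5, 10.4 and 9.43 FPKM in Ctrl and 8.60, 8.67, 9.76 and 9.05 in Ep1, a log2 change of -0.15 ± 0.06 that did not pass (adjusted p = 0.0863). With mitochondrial genes left out and the rest set to the same total, or with quantile normalization, Psme1 passed as lower. Psme2 was less abundant, at 2.91, 4.02, 3.26 and 4.04 FPKM in Ctrl and 4.12, 3.51, 4.97 and 4.69 in Ep1, with a log2 change of 0.22 ± 0.11 (adjusted p = 0.177). A near-identical gene, Psme2b, aligned to Psme2 over 794 bases at 99.4% identity and was listed at 0 in all 8 libraries, so the counting may not have kept the reads of this pair apart. The 2 partners of the ring therefore had estimates of opposite sign, and neither passed.

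Promoter windows are shown for Psme3 and Psme4, the activator genes that passed, and for Psmb5, the catalytic gene whose estimate was closest to 0. Each runs from 250 bases before to 50 bases after a transcription start in RefSeq (GRCm38.p6), is written on the gene's strand, and lies at chr11:101315963-101316262 (plus strand) for Psme3, chr11:30771525-30771824 (plus strand) for Psme4 and chr14:54617946-54618245 (minus strand) for Psmb5. Capitals mark matches, on either strand, to the core of the antioxidant response element, TGACNNNGC, which is the kind of site bound by Nfe2l1 and Nfe2l2 with small Maf proteins, and to the CCAAT box of NF-Y.
Psme3: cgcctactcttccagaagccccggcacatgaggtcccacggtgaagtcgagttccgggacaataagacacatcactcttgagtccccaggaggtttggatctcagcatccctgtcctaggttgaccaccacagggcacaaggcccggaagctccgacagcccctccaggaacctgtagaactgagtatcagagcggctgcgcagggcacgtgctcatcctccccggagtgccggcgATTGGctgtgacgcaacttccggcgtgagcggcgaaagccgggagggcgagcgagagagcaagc
Psme4: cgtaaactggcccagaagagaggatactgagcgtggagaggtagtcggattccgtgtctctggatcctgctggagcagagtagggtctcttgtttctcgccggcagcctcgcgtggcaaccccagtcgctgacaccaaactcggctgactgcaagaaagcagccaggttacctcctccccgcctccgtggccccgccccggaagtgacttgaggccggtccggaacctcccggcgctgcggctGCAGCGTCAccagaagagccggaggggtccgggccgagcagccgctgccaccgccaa
Psmb5: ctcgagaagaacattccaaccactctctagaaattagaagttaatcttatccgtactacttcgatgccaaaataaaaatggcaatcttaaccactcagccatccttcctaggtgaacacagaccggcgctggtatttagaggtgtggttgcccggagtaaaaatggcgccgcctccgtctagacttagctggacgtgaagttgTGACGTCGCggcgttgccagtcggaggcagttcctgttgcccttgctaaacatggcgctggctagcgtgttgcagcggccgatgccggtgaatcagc
Psme3 had a CCAAT box on the opposite strand that began 14 bases before the start. Psme4 had an antioxidant response core on the opposite strand beginning 7 bases before the start, and Psmb5 had one on the gene's strand beginning 47 bases before it. Of the 38 tested members 32 had a window, and 6 of these, or 18.8%, held the antioxidant response core, against 14% of 27025 genes with a window. The 6 were Psmb5, Psmb6, Psmc6, Psmd9, Psmd12 and Psme4, of which 1 passed the test of expression. The CCAAT box was found in 11 of the 32, or 34.4%, against 41.1% of all genes. The 2 motifs did not overlap in the windows shown. A match describes the letters in this window and does not show that a factor binds there.

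**Figure D2:**
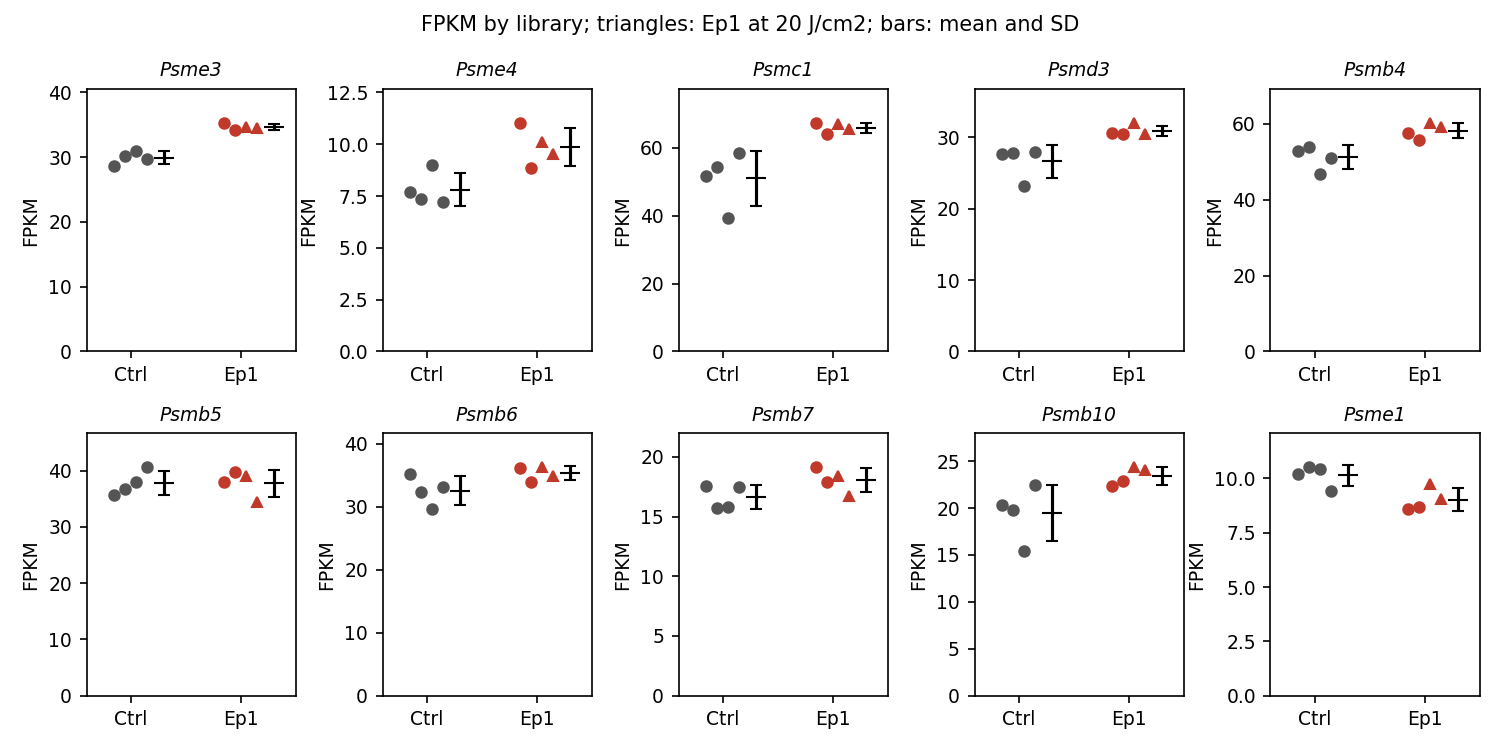
FPKM (vertical axes, from 0) in each library of Ctrl (grey) and Ep1 (red; circles at 10 J/cm2, triangles at 20 J/cm2) for the 5 members that passed (upper row) and 5 that did not (lower row), with the mean and SD of each group beside the points. Psme3, Psmc1, Psmd3 and Psmb4 show no overlap between groups, and Ctrl 3 is the lowest point for Psmc1, Psmd3, Psmb4, Psmb6 and Psmb10.

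Among the 6 ATPases of the 19S base, 1 rose, or 16.7% against 15.5% of all genes tested. None fell at the threshold, and the median log2 change was 0.14. Psmc1, also known as Rpt2, an ATPase known for its part in opening the gate of the core, had the largest estimate among the members with all libraries included. It stood at 51.8, 54.3, 39.4 and 58.4 FPKM in Ctrl and 67.3, 64.1, 67.0 and 65.5 in Ep1, a log2 change of 0.38 ± 0.11 (limma adjusted p = 0.0302). The groups did not overlap, and Ctrl 3 lay far below the other controls. Without Ctrl 3 Psmc1 passed as well, with a change of 0.26 that was below the 0.36 of Psme4, but without any 1 of Ctrl 1, Ep1 1, Ep1 3 and Ep1 4 it did not (adjusted p = 0.0549 to 0.0747). The processed pseudogene Gm9575 matched 728 bases of Psmc1 at 97.1% identity and was listed at 0.713 FPKM in Ctrl and 1.08 in Ep1. Psmc4 narrowly missed the threshold, at 33.7 ± 1.69 FPKM in Ctrl and 39.3 ± 3.39 in Ep1 (adjusted p = 0.0534). Psmc5, the most abundant member per length, stood at 86.8 ± 5.57 and 98.1 ± 7.28 FPKM (unadjusted p = 0.0366, which did not pass over all genes in limma). Psmc2, Psmc3 and Psmc6 changed by 0.11, -0.01 and 0.08 on the log2 scale and did not pass. Summed over the 6 ATPases, expression was 236 to 268 FPKM in the Ctrl libraries and 271 to 299 in Ep1, which did not overlap. The sums of the other base genes, the lid, the non-catalytic beta genes and the activators did not overlap either. Those of the alpha ring, the constitutive catalytic genes and the assembly chaperones did. How often sums over other sets of genes overlap was not tested.

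The other base genes and the lid gave 1 further call, in the lid, or 12.5% of its 8 genes against 15.5% of all genes higher. In the base, Psmd4 encodes Rpn10, a ubiquitin receptor, and stood at 27.4, 27.0, 25.5 and 29.0 FPKM in Ctrl and 29.5, 28.8, 31.7 and 33.6 in Ep1 (log2 change 0.17 ± 0.07, adjusted p = 0.0764). The scaffold genes Psmd1 and Psmd2 had estimates of -0.18 and 0.10. In the lid, Psmd3 encodes the scaffold subunit Rpn3 and stood at 27.6, 27.8, 23.2 and 27.9 FPKM in Ctrl and 30.7, 30.4, 32.0 and 30.5 in Ep1. The groups did not overlap, and the log2 change was 0.21 ± 0.07 (limma adjusted p = 0.0470). This call held without Ctrl 3 and was lost without any other single library (adjusted p = 0.0589 to 0.115). Over the 8 lid genes the median log2 change was 0.14, with Psmd8 (0.17), Psmd13 (0.18) and Psmd12 (0.16) next to Psmd3 and none of these past the threshold. Psmd14, the deubiquitinase Rpn11 that strips ubiquitin chains from substrates, went from 20.9 ± 1.91 to 19.4 ± 0.478 FPKM (adjusted p = 0.315), and Psmd11 stood at 9.02 ± 0.236 and 8.94 ± 0.271.

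Of the groups of subunits the alpha ring of the core had the median closest to 0. None of its 7 tested genes passed, and their log2 changes ran from -0.06 to 0.12 with a median of 0.03. Their summed expression was 174 ± 4.96 FPKM in Ctrl and 177 ± 3.82 in Ep1 (n = 4 each). Psma7 had the smallest p of the ring, with 23.9, 24.8, 22.7 and 24.3 FPKM in Ctrl and 24.0, 26.0, 27.7 and 26.7 in Ep1 (limma adjusted p = 0.162). Levels within the ring ran from 14.1 FPKM for Psma3 to 43.8 for Psma6 in Ctrl, although the assembled ring holds each alpha subunit equally. These levels depend on the listed gene lengths, 3894 bases for Psma3 and 1234 for Psma6. Their fragments per library were similar, at 793 to 1054 and 753 to 993. For Psma3 the level is uncertain for a further reason. The processed pseudogene Gm13835 was identical to Psma3 over 665 aligned bases and was listed at 33.5 FPKM in Ctrl and 34.8 in Ep1, above Psma3 itself at 14.1 ± 2.15 and 14.3 ± 0.667. In all, 14 of the 38 tested members had another annotated transcript with at least 100 aligned bases at 95% identity or more, and for 8 of them that gene had a mean of at least 1 FPKM.

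Of the 4 non-catalytic beta genes 1 rose, or 25% against 15.5% of all genes tested. Psmb4, a structural subunit of the beta ring, stood at 52.9, 54.0, 46.9 and 51.0 FPKM in Ctrl and 57.6, 55.7, 60.2 and 59.2 in Ep1. The groups did not overlap, and the log2 change of 0.18 ± 0.06 passed narrowly (limma adjusted p = 0.0494). The call held without Ctrl 3 or Ep1 2 and was lost without any other single library (adjusted p = 0.0592 to 0.124). Psmb3 and Psmb2 had estimates of 0.18 and 0.11 and Psmb1 of -0.11, none of which passed.

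The constitutive catalytic genes did not pass. Psmb5, the chymotrypsin-like subunit and the target of bortezomib, stood at 35.6, 36.7, 38.1 and 40.6 FPKM in Ctrl and 38.0, 39.7, 39.1 and 34.4 in Ep1. Its log2 change was 0.00 ± 0.06 with a 95% interval from -0.14 to 0.15 (limma adjusted p = 0.989). Psmb6, the caspase-like subunit, stood at 35.1, 32.3, 29.6 and 33.1 FPKM in Ctrl and 36.2, 33.9, 36.2 and 34.9 in Ep1 (log2 change 0.12 ± 0.06, adjusted p = 0.188), and without Ctrl 3 its change was 0.07. Psmb7, the trypsin-like subunit, stood at 17.6, 15.7, 15.8 and 17.5 FPKM in Ctrl and 19.1, 17.9, 18.4 and 16.7 in Ep1 (log2 change 0.11 ± 0.06, adjusted p = 0.222). For each of these 3 genes the groups overlapped.

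The immunoproteasome genes were expressed unequally. Psmb10, which replaces Psmb7, stood at 20.4, 19.8, 15.4 and 22.5 FPKM in Ctrl and 22.3, 22.8, 24.3 and 24.0 in Ep1, or 117 ± 14.1 percent of Psmb7 in Ctrl and 130 ± 11.2 percent in Ep1 (SD, n = 4). These percentages depend on the listed lengths, 1705 bases for Psmb10 and 3421 for Psmb7, with 415 to 710 and 849 to 1080 fragments per library. The log2 change of Psmb10, 0.26 ± 0.10, did not pass (limma adjusted p = 0.0847). Psmb10 passed without Ctrl 4, while without Ctrl 3 the change fell to 0.16 (adjusted p = 0.0726). Psmb8, which replaces Psmb5, stood at 0.307, 0.484, 0.281 and 0.421 FPKM in Ctrl and 0.824, 0.259, 0.674 and 0.358 in Ep1, and Psmb9, which replaces Psmb6, at 0.221, 0.179, 0.225 and 0.292 in Ctrl and 0.116, 0.191, 0.0958 and 0.257 in Ep1. These rested on 15 to 46 and 6 to 18 fragments per library. Psmb8 thus reached 0.989 ± 0.252 percent of Psmb5 in Ctrl and 1.40 ± 0.677 percent in Ep1, and Psmb9 0.705 ± 0.144 and 0.471 ± 0.220 percent of Psmb6. Both were below the level for testing, and their groups overlapped. The antisense gene Gm16156 covers Psmb10 and was listed at 0.207 FPKM in Ctrl and 0.248 in Ep1. The thymus-specific Psmb11 stood at 0.0702 to 0.198 FPKM and the testis-specific Psma8 at 0 to 0.0694 FPKM over the 8 libraries.

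**Figure D3:**
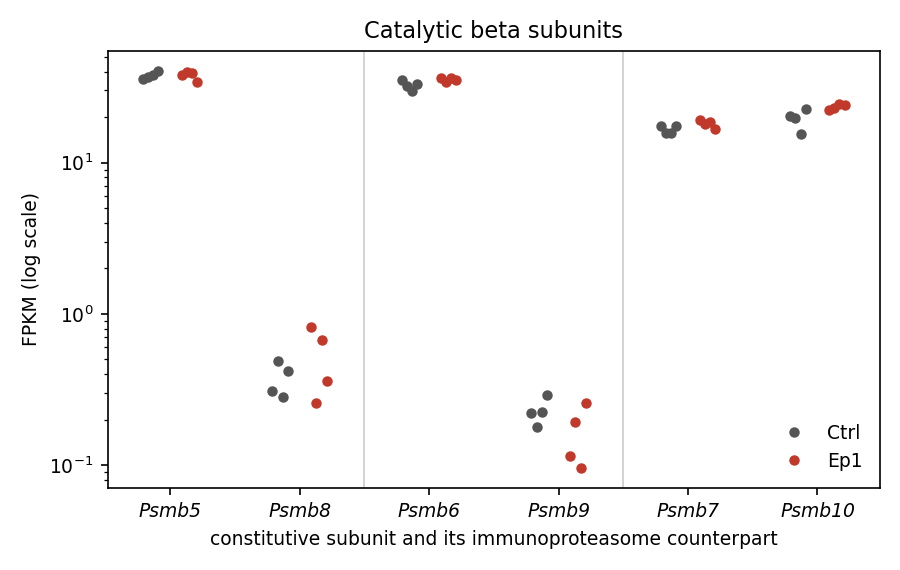
FPKM on a log scale (vertical axis) of the constitutive catalytic beta genes and their immunoproteasome counterparts (horizontal axis, in pairs) in the 4 Ctrl (grey) and 4 Ep1 (red) libraries. Psmb8 and Psmb9 lie below 1 FPKM in every library, while Psmb10 lies at 15.4 to 24.3 FPKM, close to Psmb7.

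Markers of immune cells, in which the immunoproteasome is known, and of other cell types were measured beside it. The 6 microglia and macrophage markers summed to 51.2 to 55.9 FPKM in Ctrl and 30.6 to 33.0 in Ep1, with 4 of 5 tested markers lower and none higher. Of 7 leukocyte markers, 5 stayed below 1 FPKM in all libraries, Ly6g was at 0, and 1 of the 2 tested was higher. Both of these were tested only because of their Ep1 level, the sum of the 7 being 0.343 to 1.01 in Ctrl and 0.989 to 11.5 in Ep1. The 5 red cell markers summed to 26.1 to 35.9 FPKM in Ctrl and 88.4 to 294 in Ep1, with 4 of 5 higher. The 5 astrocyte markers summed to 114 to 132 FPKM in Ctrl and 152 to 171 in Ep1, with 2 higher and none lower. Of the 8 endothelial markers 4 were higher and 3 lower, and their sums overlapped, at 59.5 to 66.5 and 60.4 to 84.8 FPKM. The part of these shifts in the proteasome values was not tested. Among 8 tested genes of antigen processing and its regulators, 3 rose and none fell, or 37.5% higher, a count that includes Irf1. Over all genes tested, 15.5% were higher and 10.6% lower. Irf1, the interferon regulatory factor known to induce Psmb9, stood at 0.975 ± 0.205 FPKM in Ctrl and at 1.62 ± 0.235 in Ep1 (limma adjusted p = 0.0213) and was tested only because of its Ep1 level, and the class I genes H2-D1 and H2-K1 from 8.10 ± 0.766 to 11.0 ± 1.74 (adjusted p = 0.0291) and from 1.26 ± 0.140 to 1.85 ± 0.319 (adjusted p = 0.0390). Irf1 lost its call without any 1 of Ctrl 1, Ep1 3 and Ep1 4 (adjusted p = 0.0557 to 0.0657). H2-D1 lost it without any 1 of Ctrl 2 to 4, Ep1 1, Ep1 3 and Ep1 4, and H2-K1 without any 1 of the 4 controls, Ep1 3 and Ep1 4 (largest adjusted p = 0.101). Tap2, Erap1, B2m and Tapbp did not pass.

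The 19S assembly chaperones are not part of the finished particle. Psmd9 stood at 2.90, 2.56, 2.38 and 2.89 FPKM in Ctrl and 3.17, 2.88, 3.51 and 3.48 in Ep1 (log2 change 0.21 ± 0.08, limma adjusted p = 0.0807), and it passed without Ep1 2. Psmd5 stood at 5.65 ± 1.08 and 6.79 ± 0.456 FPKM (adjusted p = 0.124), where Ctrl 3 at 7.27 lay above all other controls, and without Ctrl 3 it passed. Psmd10, which encodes gankyrin, was listed at 2.10 FPKM in Ctrl 4 and at 0.119 to 0.412 FPKM in the other 7 libraries.

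**Figure D4:**
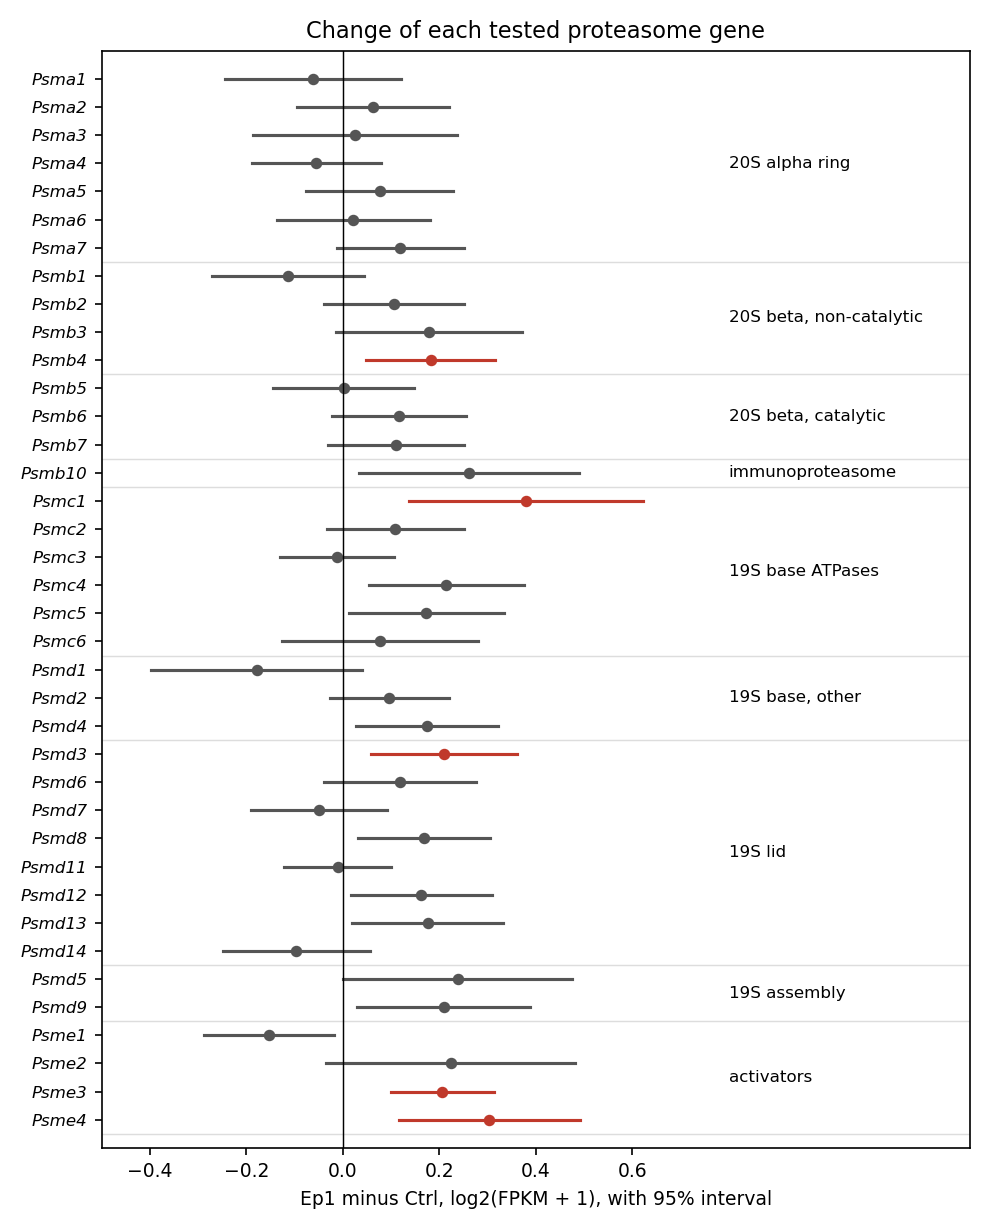
Change of each of the 38 tested proteasome genes between Ep1 and Ctrl (horizontal axis, log2(FPKM + 1), points with 95% intervals), grouped by place in the particle. The 5 genes in red passed an adjusted p of 0.05 in limma, and the median of the alpha ring, 0.03, lies nearest to 0.

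Ep1 libraries differed in the labelled energy. In a fit with 3 groups none of the 38 members passed at 10 J/cm2 against Ctrl and 5 rose at 20 J/cm2 against Ctrl, where over all genes 10.5% and 23.5% passed in either direction (13.9% as higher at 20 J/cm2). The 5 were Psmb3, Psmc5, Psmd4, Psmd9 and Psme3, of which Psme3 had also passed with the energies together. Each energy was represented by 2 libraries, and both comparisons used the same controls. The energies compared with each other gave no call among the members, and 1 gene or 0.00680% over all tested. At an unadjusted limma p under 0.05 there was 1 of the 38 members, against 1019 of 14710 genes tested. That member was Psmb3, at 23.0 and 19.4 FPKM at 10 J/cm2 and 24.5 and 25.8 at 20 J/cm2, a log2 difference of 0.24 ± 0.10 (limma adjusted p = 0.703). For Psme3 the change against Ctrl was 0.21 ± 0.06 at 10 J/cm2 (adjusted p = 0.0621) and 0.20 ± 0.06 at 20 J/cm2 (adjusted p = 0.0431). The 95% intervals of the difference between energies differed in width among the members. They ran from -0.17 to 0.15 for Psme3 and from -0.05 to 0.60 for Psme2, and over all 38 members they lay between -0.40 and 0.60. Without Ctrl 3 the members that passed numbered 4 at 10 J/cm2 and 12 at 20 J/cm2, or 10.5% and 31.6%, where 14.2% and 29.5% of all genes passed. None passed at 20 J/cm2 with quantile normalization, with mitochondrial genes removed or with no filter, where 23.8%, 25.1% and 7.05% of all genes passed. None passed without Ctrl 1 or without Ctrl 2 either, where 18.2% and 16.9% of all genes passed. Without Ctrl 4, 2 members passed, or 5.26%, against 18.5% of all genes. Removing an Ep1 library left 1 library at its energy, which was then assumed to vary like the other groups. Counts at 20 J/cm2 are therefore not given for those fits.

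Factors that build and serve the proteasome but lie outside the subunit families were read in the same fit, from lists chosen with earlier results of these data known. Of 54 tested, 11 rose and 1 fell, or 22.2% against 26.1% of all genes in either direction. Those that rose were 20.4%, against 15.5% of all genes, which is the background for the counts of each list. Irf1 and Maff, which entered the test only through their Ep1 level, are among the 11. The 1 that fell was Psmg2, whose product pairs with that of Psmg1 as a chaperone of the alpha ring. It stood at 7.10, 7.91, 8.81 and 7.54 FPKM in Ctrl and 4.84, 5.98, 6.22 and 5.38 in Ep1, with no overlap (log2 change -0.42 ± 0.09, limma adjusted p = 0.00764). Its partner gene Psmg1 did not pass (adjusted p = 0.368), nor did Pomp, which assembles the beta ring, at 11.6 ± 0.747 and 12.6 ± 0.818 FPKM (adjusted p = 0.203). These 3 belong to a list of 7 tested assembly factors and inhibitors in which none rose.

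Among 7 shuttle receptors 2 rose and none fell, or 28.6% higher against 15.5% of all genes. Ddi2, the protease known to activate the Nfe2l1 product by cleavage, went from 5.37, 5.57, 6.26 and 5.51 FPKM in Ctrl to 9.12, 7.75, 8.48 and 8.71 in Ep1, with no overlap (log2 change 0.51 ± 0.07, limma adjusted p = 0.00115). Ubqln1, which carries ubiquitinated proteins to the proteasome, went from 44.0 ± 1.17 to 49.3 ± 2.02 FPKM (adjusted p = 0.0477), and that call held without Ctrl 3 or Ep1 2 and was lost without any other single library (adjusted p = 0.0870 to 0.122). Among 9 bound factors 1 rose and none fell: Zfand2a, known as AIRAP, an arsenite- and heat-inducible regulator of the 19S particle, from 16.9, 16.4, 18.1 and 18.8 FPKM in Ctrl to 23.6, 20.7, 23.6 and 25.6 in Ep1 (adjusted p = 0.00513). Among 8 genes of the p97 segregase, which pulls ubiquitinated proteins out of complexes, 1 rose, the cofactor gene Nploc4, from 17.0, 16.6, 16.4 and 18.3 FPKM in Ctrl to 22.2, 19.9, 21.7 and 22.6 in Ep1 (adjusted p = 0.00478), and none fell. For Zfand2a and Nploc4 every Ep1 library lay above every control.

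Of 9 tested regulators of proteasome genes 3 rose and none fell, or 33.3% higher against 15.5% of all genes. The 3 include Maff, which entered the test only through its Ep1 level. Nfe2l1 itself stood at 67.9, 66.4, 55.5 and 72.7 FPKM in Ctrl and 71.5, 69.3, 71.1 and 73.7 in Ep1 and did not pass (log2 change 0.13 ± 0.08, limma adjusted p = 0.271), and without Ctrl 3 its change was 0.05. The small Maf genes, whose products are partners of Nfe2l1 and Nfe2l2 at antioxidant response elements, differed among themselves. Maff went from 0.489 ± 0.119 to 6.26 ± 2.47 FPKM (adjusted p = 0.000471), and it was tested because of its Ep1 level. Mafk went from 2.47 ± 0.218 to 4.62 ± 0.798 FPKM (adjusted p = 0.00218), and Mafg did not pass (adjusted p = 0.740). Zfp143, a zinc finger factor, went from 2.95 ± 0.161 to 3.61 ± 0.288 FPKM (adjusted p = 0.0405), which held without Ep1 2 and was lost without any other single library (adjusted p = 0.0583 to 0.102).

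The members varied little within groups, with a median coefficient of variation of 7.17% in Ctrl and 4.29% in Ep1, against 10.8% and 9.08% over all genes tested. Ctrl 3 was the highest or lowest control for 31 of 38 members, or 81.6%, against 73.8% of all genes. It was the lowest for 16, including Psmc1, Psmb10 and Psmd3, and the highest for 15, including Psmd1, Psma3 and Psmc6. Ep1 2 was the lowest Ep1 library for 22 of 38, or 57.9%, against 33.5% of all genes. The median deviation of the members from the Ctrl mean was 0.06 in Ep1 2 and 0.10 to 0.14 in the other Ep1 libraries, and -0.03 to 0.03 in the controls. Leaving out Ctrl 3 or Ep1 2 raised the number of members called higher from 5 to 8 in each case, or 21.1% of members, where 15.8% and 16.4% of all genes were higher. Leaving out any other library lowered the number to between 1 and 3, and the share of all genes to between 10.7% and 13.4%.

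**Figure D5:**
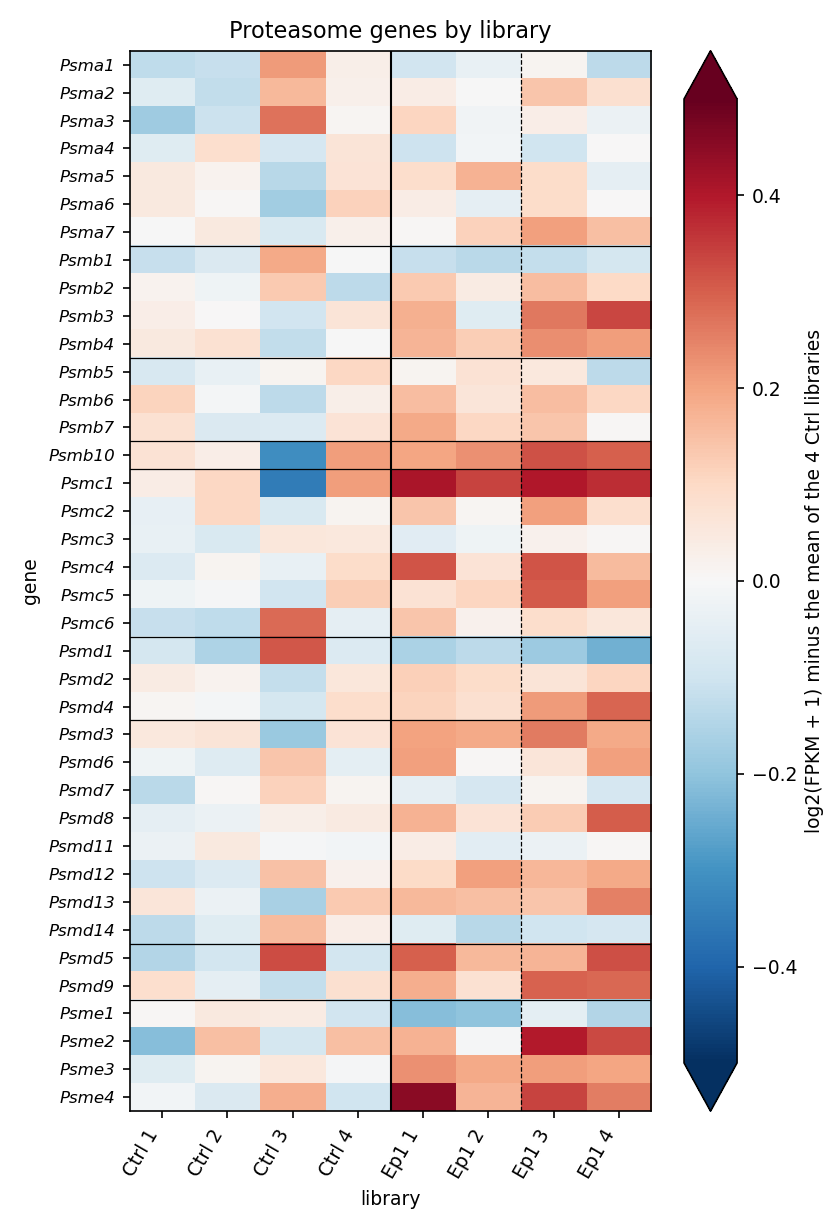
Deviation of each tested proteasome gene (rows, in the order of the particle) from the mean of the 4 Ctrl libraries, as log2(FPKM + 1), in each library (columns; the dashed line separates Ep1 at 10 J/cm2 from Ep1 at 20 J/cm2). Ctrl 3 shows the strongest colours of both signs among the controls, with Psmc1 and Psmb10 low and Psmd1 and Psmd5 high, and Ep1 2 is the palest of the Ep1 libraries.

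The 5 members that passed lie at these places in GRCm38, whose gene coordinates matched the table for 43 of 43 members. Psme3 (ENSMUSG00000078652), Psme4 (ENSMUSG00000040850) and Psmd3 (ENSMUSG00000017221) are on chromosome 11, at 101316213 to 101323537, 30771726 to 30880361 and 98682554 to 98695979. Psmc1 (ENSMUSG00000021178) is on chromosome 12 at 100110154 to 100123405, and Psmb4 (ENSMUSG00000005779) on chromosome 3 at 94884093 to 94886961. Of the tested members 19 overlap another annotated gene in the table, among them Psmb7 with Nek6 and Psmc3 with Slc39a13 on the opposite strand, and the strand setting of the counting was not stated.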

How the data were processed

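Total RNA of 8 libraries was sequenced on an Illumina platform, per the labels. The authors deposited FPKM values, per the file headers, with a gene length for each row; Bowtie 0.12.2 and the build mm8 are named in the submitters' processing notes without a role, and the counter, strand setting and filters were not stated. Columns named C or E with a number were assigned to Ctrl and Ep1 by letter and number, which is an inference. Fragments per gene were recovered from FPKM and length: 100% of the values checked came out whole within 0.01. The median-of-ratios factor (the median over genes of a library's value against the gene's geometric mean) was 1.01 in every library. The deposited values were therefore already scaled in that way and not to the library totals.

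The 14710 genes averaging 1 FPKM or more in Ctrl or Ep1 were tested on the log2(FPKM + 1) scale by limma (version 3.58.1, under R 4.3.3; trended, robust empirical Bayes, two-sided) with Benjamini-Hochberg adjustment over all of them at 0.05. A fit with 3 groups compared the energies. Fold changes on this scale understate those of low genes. The procedure was tested on simulated data. Near-identical transcripts were sought in GENCODE M21 with BLAST 2.17.0. Tables and plots used Python 3.11.15.

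The members and lists were chosen with earlier results of these data known. Values per library are given for members that passed, the catalytic and activator genes and the member with the smallest p in each group, and outside the rule for up to 3 genes of each list that passed, with Nfe2l1 and Pomp; Psmg1 and Mafg were named after their values were seen. Alternatives were another pseudocount, other filters and scalings, plain variance estimates, voom weights on the recovered fragments, replicate numbers as a block, and leaving out each library. Some genes of the lists are counted in the totals but not reported here by name.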

Additional observations from a re-analysis of the deposited data

Results flagged for a closer look

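In 5 of 114 groups of 4 libraries examined, 1 library lay far from the other 3 relative to the range of the group, where chance gives about 1 in 20. Of these, 3 involved Ctrl 3. Psmd1 was at 18.1 FPKM in Ctrl 3 and at 12.8 to 13.6 in the other controls. Psmd5 was at 7.27 FPKM in Ctrl 3 and at 4.96 to 5.19 in the others. Psmd3 was at 23.2 FPKM in Ctrl 3 and at 27.6 to 27.9 in the others, and in Ep1 it was at 32.0 FPKM in Ep1 3 and at 30.4 to 30.7 in the others. Psmd10 was at 2.10 FPKM in Ctrl 4 and at 0.186 to 0.344 in the other controls.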

How the results depend on the processing

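The number of members higher in Ep1, 5 in the reported fit, was 1 with no filter on low values, 2 with quantile normalization, 3 with mitochondrially encoded genes left out, 3 without trend and robust estimation, and 3 with voom weights. In that order, these were 2.3%, 5.3%, 7.9%, 7.9% and 7.9% of members. Over all genes tested, 5.3%, 13.2%, 13.6%, 15.0% and 14.5% were higher. The number of members higher ran from 1 to 8 when 1 library was left out. The number of members lower was 0 except for 1, Psme1, with quantile normalization and with mitochondrially encoded genes left out. The median change of 0.11 stayed above 0 in all 17 alternatives, at 0.027 with quantile normalization, 0.077 with mitochondrially encoded genes left out, and 0.10 to 0.13 when 1 library was left out. The 12 calls among the lists outside the subunit families became 7 with a minimum of 5 FPKM, which left Irf1, H2-K1, Maff, Mafk and Zfp143 untested. With no filter on low values they became 8, and H2-D1, H2-K1, Zfp143 and Ubqln1 lost theirs. They numbered 7 to 15 when 1 library was left out. Psme3 passed in 15 of 17 alternatives, Psmc1 in 11, Psme4 in 10, Psmb4 in 5 and Psmd3 in 4, while Ddi2, Nploc4, Zfand2a and Psmg2 passed in all 17. Of the 17, median-of-ratios scaling divided every library by the same factor, 1.01. It therefore repeated the reported fit almost exactly and adds nothing to these counts as a check. The estimate of Psmb5, near 0, turned negative with quantile normalization (-0.076), with mitochondrially encoded genes left out (-0.035), with voom weights (-0.029) and when 1 library was left out (lowest -0.025, highest 0.045). The comparison of the energies gave no member in any alternative run. The causes of these shifts were not tested. Over all genes, 59.2% of calls were higher in the reported fit, against 49.4% with quantile normalization, 50.8% with mitochondrially encoded genes left out and 49.0% with voom. Leaving out those genes also set the rest of each library to the same sum. Voom kept them and scaled to the total fragments of the tested genes, with a median change of 0.08 for members and -0.02 for all genes. Which of the steps moved the counts was not tested. Replicate numbers did not pair the libraries, with correlations of deviations from -0.05 to 0.06 between libraries of the same number; with the number as a replicate block 1 member, Psme4, was higher. The depth limits Psmb8, Psmb9, Psmb11, Psma8 and Psmd10, with 0 to 52 fragments per library.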
